A study of Mus musculus with 84 samples.

Results

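Trimethylation of histone H3 at lysine 4 (H3K4me3) is the mark of active and poised promoters, and most of it lies at the start of a gene. A small part lies elsewhere: at promoters of long non-coding RNAs (lncRNAs), at unannotated starts and at strong enhancers. H3K27ac marks active promoters and enhancers, H3K4me1 is the usual mark of enhancers, and H3K27me3 is laid down by the Polycomb complex over silent genes. In fat, most of the enhancers that define the adipocyte lie far from the genes they serve, so H3K4me3 far from coding genes was examined here together with the other marks.

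The regions are those H3K4me3 peaks, merged over all 21 H3K4me3 libraries, that lay on an autosome, more than 10000 bp from the transcription start of every protein-coding transcript of a protein-coding gene (52086 starts of 20718 genes, GENCODE M21 on GRCm38), and that carried a peak in 5 or more libraries. Of 73992 merged autosomal regions, 41916 passed the distance limit and 28561 the limit on libraries. Both limits left 11153 regions, called distal below, and the 17408 regions within 10000 bp of a coding start are called promoter-near. The members were chosen by the presence of H3K4me3 itself, so H3K4me3 presence is given as a description without a test, and tests were made only on H3K27ac, H3K4me1 and H3K27me3.

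All libraries are CUT&Tag profiles, in which an antibody guides a DNA-tagging transposase to a histone mark, of nuclei from epididymal fat of AdipoERCre x NuTRAP mice. In these mice a tamoxifen-inducible Cre driven by the adiponectin promoter switches on a nuclear tag in adipocytes, and nuclei are pulled down by that tag. All mice received tamoxifen at 4 to 5 weeks of age. In the 12-week cohort, C mice had chow and H mice high-fat diet (HFD) for 12 weeks (both 18 weeks old), and HC mice had 12 weeks of HFD and then 8 weeks of chow, with chow-fed CC_s mice of the same age of 26 weeks. In the 25-week cohort, CC_l (chow) and HH (25 weeks of HFD) were 31 weeks old, and HHC (25 weeks of HFD, then 8 weeks of chow) and CCC (chow) were 39 weeks old. H and HH are the obese groups, HC and HHC the weight-loss groups. Chow here stands for different diets. Per the paper, controls had a low-fat chow during the HFD phase, and both arms another chow during the weight-loss phase. H3K4me3 has 3 libraries each in C, H, CC_s, HC and HHC and 2 in CC_l, HH and CCC. For 4 of the 21 H3K4me3 libraries (CC_l 2, HH 2, HH 3 and CCC 3) the treatment field names another group than the title. Titles were used.

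Libraries differed before any comparison of diets. The H3K4me3 lists held between 11249 and 41976 peaks, with 11249 to 28592 in the 12-week cohort and 32225 to 41976 in the 25-week cohort, so that the cohorts did not overlap and cohort cannot be told apart from library preparation. Promoters of 15 adipocyte genes (Adipoq, Plin1, Pparg and others) carried H3K4me3 at 11 to 15 of 15 in each library. Promoters of 15 macrophage genes (Ptprc, Csf1r, C1qa and others) carried it at 0 to 6 of 15 in the 10 control libraries. In H the numbers were 12, 15 and 0 and in HC 1, 2 and 9. In HH they were 14 and 13 and in HHC 14, 11 and 11. Those of 9 lymphocyte genes carried it at 0 to 3 in controls, 0 to 2 in H and 0 to 4 in HC. In both HH libraries 6 of the 9 were marked, and 7 to 9 in HHC libraries. These values are set beside the results that they move with.

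The sequences under the strongest H3K4me3 signal show the range of the distal regions, from CpG-dense lncRNA promoters to CpG-poor intronic sites. Each window is 200 bases of the forward strand of RefSeq GRCm38.p6, centred on the highest point of the strongest peak, with each CpG in capitals. The first 3 lie in regions that hold starts of known lncRNAs: Lncpint at chr6:31216755-31216954, Dancr at chr5:74092996-74093195 and Kcnq1ot1 at chr7:143296504-143296703. The next 2 lie in regions marked in 21 of 21 libraries with no annotated transcript start within 1000 bp, at chr6:117879125-117879324 near Zfp239 and chr15:85669686-85669885 near Ppara. The last 3 lie in introns of coding genes. They are the member lost most over the 4 comparisons of diets, chr4:141648281-141648480 near Plekhm2, and 2 of the 3 listed as gained most, chr2:6705779-6705978 near Celf2 and chr2:84623480-84623679 near Ctnnd1. The list of gained members was cut at 3, with ties taken in genomic order.

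Lncpint: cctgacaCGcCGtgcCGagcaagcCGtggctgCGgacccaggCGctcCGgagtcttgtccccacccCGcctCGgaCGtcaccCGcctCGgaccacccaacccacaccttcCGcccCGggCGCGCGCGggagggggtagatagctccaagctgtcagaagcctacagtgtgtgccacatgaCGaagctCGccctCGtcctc

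Dancr: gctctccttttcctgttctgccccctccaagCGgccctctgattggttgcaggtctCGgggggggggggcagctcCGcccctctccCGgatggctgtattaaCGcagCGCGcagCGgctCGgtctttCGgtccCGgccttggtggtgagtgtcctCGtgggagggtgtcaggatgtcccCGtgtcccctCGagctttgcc

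Kcnq1ot1: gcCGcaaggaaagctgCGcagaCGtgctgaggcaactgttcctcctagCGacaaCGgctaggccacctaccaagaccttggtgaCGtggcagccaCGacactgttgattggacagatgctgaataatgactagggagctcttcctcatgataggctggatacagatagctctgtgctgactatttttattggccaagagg

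near Zfp239: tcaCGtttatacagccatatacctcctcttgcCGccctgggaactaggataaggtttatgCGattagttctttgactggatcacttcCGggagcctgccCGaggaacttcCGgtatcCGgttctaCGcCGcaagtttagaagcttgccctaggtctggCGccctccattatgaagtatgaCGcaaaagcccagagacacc

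near Ppara: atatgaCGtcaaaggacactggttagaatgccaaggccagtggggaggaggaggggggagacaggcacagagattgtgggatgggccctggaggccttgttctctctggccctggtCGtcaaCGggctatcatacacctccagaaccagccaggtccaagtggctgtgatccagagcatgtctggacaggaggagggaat

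near Plekhm2: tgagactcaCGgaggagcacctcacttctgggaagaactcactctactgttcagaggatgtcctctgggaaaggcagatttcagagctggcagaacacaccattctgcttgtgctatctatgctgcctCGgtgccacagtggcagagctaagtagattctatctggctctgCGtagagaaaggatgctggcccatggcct

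near Celf2: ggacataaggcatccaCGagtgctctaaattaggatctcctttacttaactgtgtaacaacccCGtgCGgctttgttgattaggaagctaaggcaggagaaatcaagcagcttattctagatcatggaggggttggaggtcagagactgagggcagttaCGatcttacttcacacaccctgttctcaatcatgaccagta

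near Ctnnd1: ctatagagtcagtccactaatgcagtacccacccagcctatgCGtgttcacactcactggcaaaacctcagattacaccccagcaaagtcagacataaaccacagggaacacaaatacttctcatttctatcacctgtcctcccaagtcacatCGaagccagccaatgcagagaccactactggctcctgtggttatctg

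The Lncpint window holds 21 CpGs, that of Dancr 14, the unannotated window near Zfp239 11 and that of Kcnq1ot1 7. The windows near Celf2, Ppara, Plekhm2 and Ctnnd1 hold 4, 3, 3 and 2.

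Distal H3K4me3 was less constant than promoter H3K4me3. Of the 11153 distal regions, 1778 were marked in exactly 5 libraries and 390 (3.497%) in all 21, against 7495 of the 17408 promoter-near regions (43.1%). Just outside the limit, 2286 regions over 10000 bp away were marked in 4 libraries. Distal regions were narrower, with a median width of 2496 bp against 4130 bp, and lower in total signal, which was not scaled to width. The median member sat at the 35.99th percentile of total signal among the peaks of a library, against the 64.0th for the promoter-near regions. The median distance to a coding start was 35896 bp, and 2029 members (18.2%) were more than 100000 bp away. The member nearest to the limit lay 10002 bp from 1810010H24Rik and the nearest region outside it 9996 bp from Ptbp1 or Taok1.

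**Figure D1:**
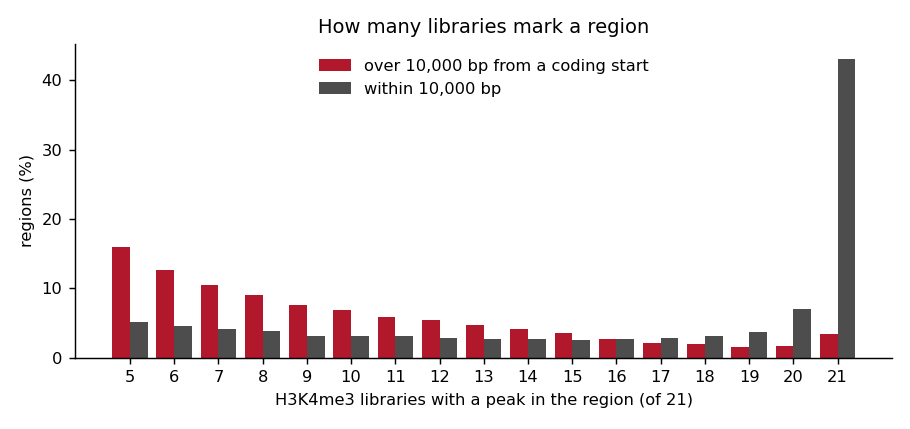
Share of distal (red) and promoter-near (grey) H3K4me3 regions, in percent of each set, by the number of the 21 H3K4me3 libraries with a peak in the region. The distal bars fall from 15.9% at 5 libraries, and 43.1% of promoter-near regions against 3.497% of distal regions stand at 21.

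By position, 42.8% of the distal summits fell between annotated genes, 41.5% in an intron of a coding gene, 8.56% in an intron of a non-coding gene and 7.12% in an exon. The members had 5195 nearest coding genes, of which 2772 had 1 member and 71 had 10 or more. The genes with the most members, named after their values were seen, were Asap2 and Irs2 (19 each), Tcp10c and Zfp608 (18 each), followed among others by Foxo1 and Trib1 (15 each). Irs2 is an adaptor of the insulin receptor and Foxo1 a transcription factor held back by insulin signalling. The numbers were not scaled to the length of sequence around each gene.

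A start of an annotated non-coding gene lay within 1000 bp of 1424 distal regions (12.8%). Of these, 837 (7.50% of the members) touched a lncRNA start, 325 a pseudogene, 222 a small RNA and 158 a transcript of the annotation class TEC, whose existence awaits experiment, with some regions in several classes. For 9293 members (83.3%) no annotated start of any kind lay within 1000 bp. Measured per length, the members with 1000 bp on either side held 41.3 non-coding starts per Mb, against 41.4 around the promoter-near regions, 12.5 around 3851 distal H3K4me1 regions that touched no H3K4me3 peak, and 14.5 over all autosomes. The density rose with constancy, from 25.5 per Mb for members marked in 5 to 9 libraries to 168 per Mb for those in all 21.

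Members marked in more libraries held features of promoters more often. A non-coding start lay at 8.64% of the 6216 members marked in 5 to 9 libraries, 13.2% of the 3410 in 10 to 15, 23.6% of the 1137 in 16 to 20, and 43.6% of the 390 in all 21. A CpG-rich window (500 bp at the summit with over 50% GC and an observed-to-expected CpG ratio over 0.6) was found at 2.53%, 3.96%, 14.3% and 35.9% of the same classes, and at 5.33% of all members against 49.0% of promoter-near regions. Among distal H3K4me1 regions without H3K4me3, 0% passed this limit. Width moved with these shares: the median widths were 2178, 2778, 3627 and 4222 bp over the classes, and the part of width in them was not tested.

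**Figure D2:**
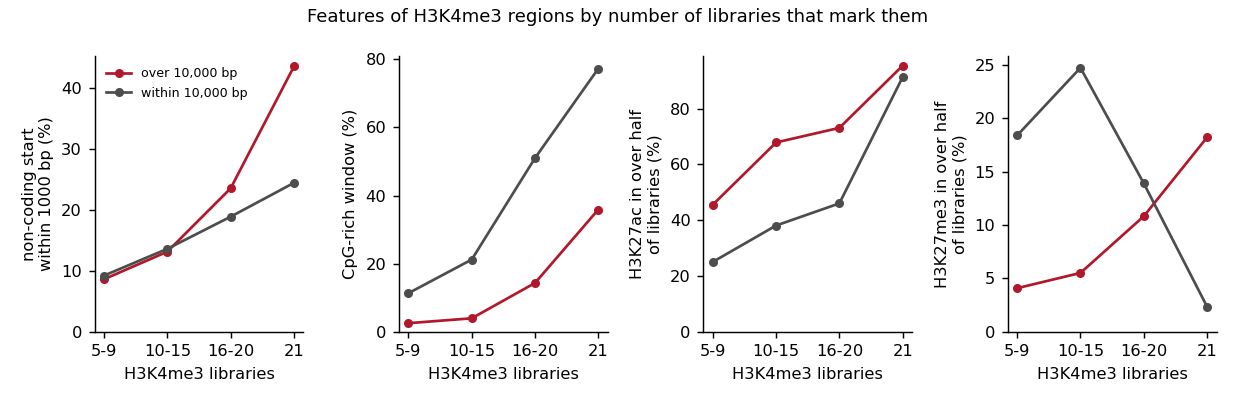
Percent of distal (red) and promoter-near (grey) regions with a non-coding transcript start within 1000 bp, with a CpG-rich window, with H3K27ac in more than 50% of 21 libraries and with H3K27me3 in more than 50% of 20 libraries, by the number of H3K4me3 libraries that mark them. In distal regions all 4 shares are highest in the class of 21 libraries (43.6%, 35.9%, 95.4% and 18.2%), while promoter-near H3K27me3 falls to 2.36% there.

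The constant members with a lncRNA start included well-known nuclear RNAs. The strongest, a merged region of 63179 bp on chromosome 19 (5790735 to 5853913), holds the starts of both Neat1, the scaffold of nuclear paraspeckles, and Malat1, a splicing-associated RNA. It was marked by H3K4me3 and H3K27ac in 21 of 21 libraries each, by H3K4me1 in 22 of 22 and by H3K27me3 in 0 of 20, and its median percentile of total signal was 99.9. Lncpint (chromosome 6, 31205898 to 31222898) had H3K4me3 in 21, H3K27ac in 19, H3K4me1 in 22 and H3K27me3 in 1, and Carmn, a lncRNA of smooth muscle and mesenchymal cells (chromosome 18), had 21, 21, 22 and 6. The others of the 8 most constant were Gm16170, 1700031P21Rik, 2810410L24Rik, Snhg8 and Gm26887, each with H3K4me3 and H3K27ac in 21 of 21, H3K4me1 in 9 to 20 of 22 and H3K27me3 in 1 to 5 of 20. All 8 were marked in every library of every diet group.

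Of 41 non-coding genes listed for this tissue and for imprinted or host-gene loci, 19 had a start at a distal region, 12 lay within 10000 bp of a coding start, 6 had no region marked in 5 libraries and 4 were not found as non-coding genes in the annotation. Snhg5, Snhg8 and Dancr, hosts of small nucleolar RNAs, and Kcnq1ot1, the paternally expressed antisense RNA of an imprinted cluster, were marked in 21 of 21 libraries, with H3K27ac in 21, 21, 20 and 19. So were Dnm3os, Peg13, Pvt1, Dleu2, Snhg17 and 1700020I14Rik. Mir17hg, host of a cluster of growth-promoting miRNAs, was marked in 20 libraries but had H3K27ac in 7 of 21 and H3K4me1 in 1 of 22. Mir155hg, host of an miRNA induced in activated immune cells, had H3K4me3 in 15, H3K27ac in 3 and H3K27me3 in 14 of 20. Its H3K4me3 was found in 7 of the 10 chow-control libraries (3 C, 1 CC_s, 1 CC_l, 2 CCC) and in 8 of the 11 diet libraries (2 H, 1 HC, 2 HH, 3 HHC). The imprinted maternal transcripts Meg3, Rian, Mirg and H19 had no region marked in 5 libraries.

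Some of the most constant members had no annotated start nearby. The strongest 6 lay near Hfe2, Olfr1423, Ppara, Zfp239, Wnt11 and Abt1, and each was marked in all 21 libraries. The region near Ppara, which encodes the nuclear receptor of fatty acid oxidation, spanned 31444 bp (chromosome 15, 85659954 to 85691397), 44167 bp from a coding start and 6338 bp from any annotated start, and had H3K27ac in 21 of 21 and H3K4me1 in 22 of 22. The one near Abt1 instead had H3K27ac in 18 of 21 and H3K4me1 in 0 of 22. The names only give the nearest coding gene.

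The distal regions carried H3K4me1, with or without H3K27ac, more often than promoter-near regions did. H3K27ac, counted whether or not H3K4me1 was there, was present in most of its libraries at 56.9% of distal and 59.8% of promoter-near regions. H3K27ac and H3K4me1 were each present in most of their libraries (more than 50%) at 5619 members (50.4%), against 32.3% of promoter-near regions. Another 989 (8.87%) had H3K4me1 but not H3K27ac in most, 730 (6.55%, against 27.5%) had H3K27ac but not H3K4me1, and 3815 (34.2%) had neither, although only 704 (6.31%) had neither mark in any library. Of the 704 members, 38.8% had a summit window more than 50% covered by interspersed repeats or low-complexity sequence, against 6.95% of all members.

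Over libraries, H3K4me1 marked 57.4% ± 11.8 (SD, n = 22) of distal and 43.7% ± 16.01 of promoter-near regions, a difference of 13.7 ± 12.7 percentage points (sign-flip permutation test over libraries, two-sided, p = 0.00026, adjusted over 3 tests p = 0.00039). The share was higher at distal regions in 18 of 22 libraries. H3K27me3 went the other way, with 8.46% ± 3.08 (n = 20) of distal and 14.5% ± 4.76 of promoter-near regions, a difference of -6.04 ± 1.92 points with the distal share lower in every library (permutation p = 1e-05, the smallest 100000 resamples can give, adjusted p = 3e-05). For H3K27ac the shares were 53.5% ± 14.04 (n = 21) and 57.5% ± 15.5, and the difference of -4.08 ± 9.66 points did not pass the test (permutation p = 0.0698). Its sign depended on the overlap asked for: with at least 25% of a region covered by H3K27ac, the difference was 4.90 points (permutation p = 0.0593).

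**Figure D3:**
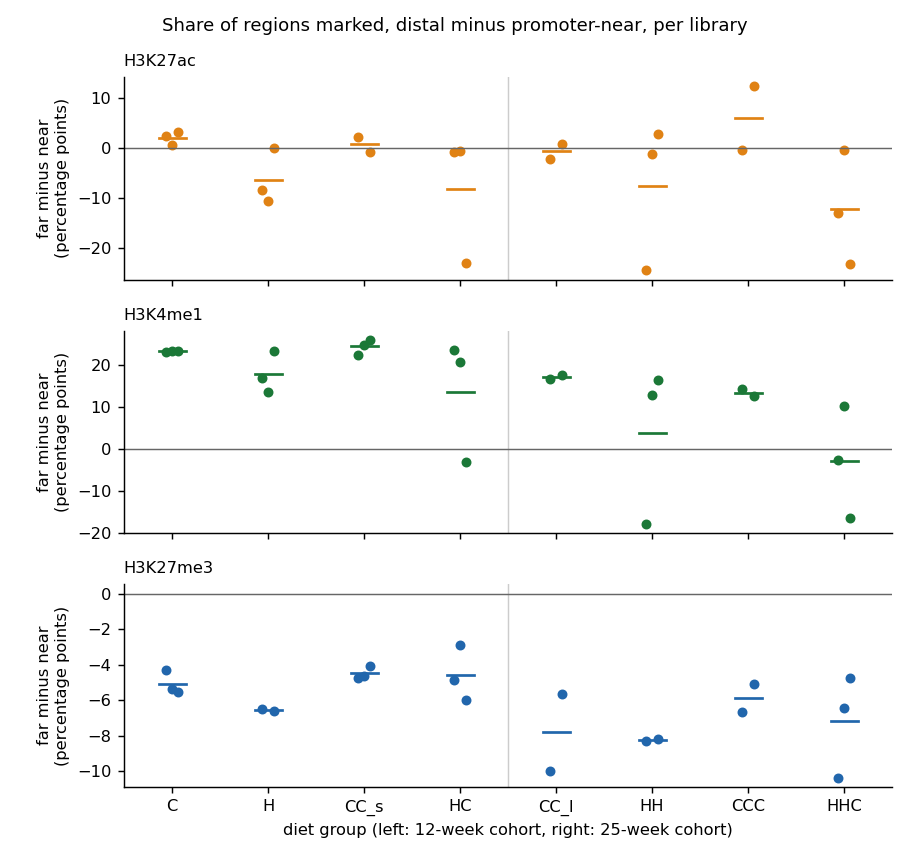
Percentage of distal minus percentage of promoter-near H3K4me3 regions marked by H3K27ac, H3K4me1 and H3K27me3 in each library (points), with group means (bars), by diet group. H3K4me1 is above 0 in 18 of 22 libraries and H3K27me3 is below 0 in all 20. The H3K27ac values of HC 3, HH 1, HHC 1 and HHC 3 lie between -13.1 and -24.5, and that of CCC 3 is the highest, at 12.3.

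The lowest of these H3K27ac and H3K4me1 differences came from a few libraries of obese and weight-loss mice. In HC 3, HH 1, HHC 1 and HHC 3, distal minus promoter-near H3K27ac was -23.1, -24.5, -13.1 and -23.2 points, and H3K4me1 was -3.14, -17.97, -2.78 and -16.4, the only 4 values below 0. The same 4 had H3K27ac at 9, 10, 14 and 8 of the 15 macrophage promoters, and the 9 control libraries at 2 to 6. HH 2, with 10 of 15, did not stand apart, at -1.25 points for H3K27ac and 12.8 for H3K4me1. H 1, with 8 of 15, stood at -8.36 and 16.9. At the other end, the highest H3K27ac difference, 12.3 points, was that of the control CCC 3, whose H3K27ac list held 14917 peaks. Without the 6 libraries in which 8 or more of the 15 were marked (H 1, HC 3, HH 1, HH 2, HHC 1 and HHC 3), a choice made after seeing the data, H3K27ac stood at 0.529 points (permutation p = 0.603) and H3K4me1 at 19.5 (p = 2e-05).

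Polycomb marking of the distal regions was rare and uneven. H3K27me3 was absent from all 20 libraries at 7434 members (66.7%), present in most at 636 (5.70%) and in all 20 at 199. Where H3K27me3 was frequent, H3K27ac was present on average in 26.5% of libraries and H3K4me1 in 29.3%, against 57.7% and 62.2% at members without it. The members with frequent H3K27me3 were CpG-rich in 17.9% and repeat-covered in 24.1% of cases, against 3.27% and 6.16% of those without. At promoter-near regions frequent H3K27me3 fell to 2.36% of those marked by H3K4me3 in all 21 libraries, whereas at distal regions it was highest there, at 18.2%. Of the 199 members with H3K27me3 in all 20 libraries, the 3 that came first by H3K4me3 libraries and then by H3K4me3 percentile, near Chl1 (322 bp wide), near Rab10 (366 bp) and at Gm33838 (2749 bp), carried all 4 marks in every one of the 84 libraries, as did 13 members in all. Their median percentiles of H3K4me3 signal were 99.98, 99.98 and 99.97, and such sites do not separate one antibody from another.

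The share of distal regions with H3K4me3 varied widely among libraries of one diet. By library it was 42.4%, 58.9% and 44.8% in C and 22.98%, 24.6% and 5.77% in H, so that every H library lay below every C library. In the older mice it was 56.3% and 84.3% in CC_l and 75.4% and 84.9% in HH, which overlapped. After weight loss it was 23.1%, 12.7% and 27.7% in HC against 8.45%, 15.0% and 43.3% in CC_s, and 54.1%, 85.6% and 57.01% in HHC against 83.3% and 84.4% in CCC, which also overlapped. H 3, with 5.77%, had the fewest peaks of all H3K4me3 libraries. Averaged over both cohorts, diet minus control was -10.5 points for obesity and -9.67 points for weight loss, and the obese difference was -30.9 points in the 12-week but 9.84 points in the 25-week cohort. Distal minus promoter-near shares were -43.4 ± 2.17 points in H against -30.0 ± 4.40 in C and -23.4 ± 11.8 in HHC against -7.28 ± 0.727 in CCC (n as above). With groups from titles neither pair overlapped, while HC and CC_s and HH and CC_l did. By the treatment field, CCC would hold CCC 1 (-7.80) and HH 2 (-16.2), and HHC 2 (-9.71) would lie between them. CC_l (CC_l 1 at -26.6, HH 3 at -8.99) and HH (CC_l 2 at -7.04, CCC 3 at -6.77) would then not overlap.

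**Figure D4:**
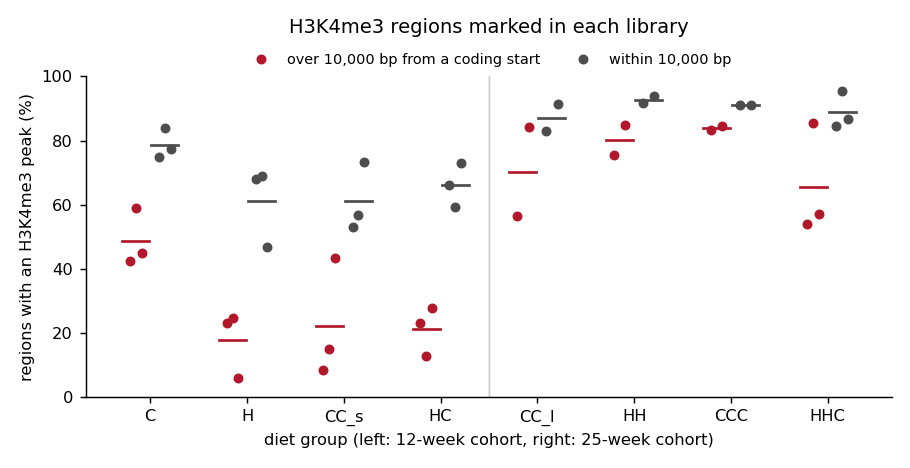
Percentage of the 11153 distal (red) and 17408 promoter-near (grey) regions with an H3K4me3 peak in each library (points), with group means (bars), by diet group and cohort. Distal shares run from 5.77% to 58.9% in the 12-week and from 54.1% to 85.6% in the 25-week cohort, and in each library the promoter-near share is higher.

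For the 3 marks that did not choose the regions, diet was tested by exact permutation of group labels within cohorts. H3K27ac marked 35.4% ± 9.37 of distal regions in H against 55.5% ± 1.06 in C (n = 3 each, no overlap), and 62.1% ± 11.3 in HH (n = 3) against 70.7% ± 4.34 in CC_l (n = 2). The mean difference of -14.3 points had an exact permutation p of 0.025, which after adjustment over 6 tests was 0.15, so that it did not hold. Once the promoter-near share of the same library was subtracted, a step added after seeing the data, the difference was -7.67 points (exact permutation p = 0.165). Leaving out C 1, 2 or 3 or either CC_l library also raised p, to between 0.06 and 0.075 by exact permutation, with differences of -12.7 to -15.8 points. Without the 6 libraries with macrophage marks the difference was -14.9 points (exact permutation p = 0.0333, the smallest that design allows). After weight loss the H3K27ac difference was -1.93 points (exact permutation p = 0.83). For H3K4me1 the differences were -5.01 (obese, p = 0.6) and -6.11 points (weight loss, exact permutation p = 0.305), and for H3K27me3 1.48 (p = 0.3) and 2.06 points (exact permutation p = 0.195). None passed after adjustment, and all 5 had adjusted p of 0.458 or more.

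Individual regions were called gained when all libraries of a diet group and no library of its control group were marked, and lost in the opposite case. In H against C, 6 members were gained and 1227 lost (11% of members), beside 0.0315% and 7.4% of all 28561 regions. In HC against CC_s, 33 were gained and 34 lost (0.296% and 0.305%), beside 0.389% and 0.182% of all regions. In HH against CC_l, 861 were gained and 321 lost (7.72% and 2.88%), beside 5.52% and 1.78%, and in HHC against CCC, 536 and 708 (4.81% and 6.35%), beside 3.81% and 3.45%. Peak number bears directly on these counts. With the 11069 strongest autosomal peaks of each library, the H comparison gave 12 gained and 68 lost members, HH gave 74 and 86, and HHC gave 55 and 200. Single libraries also moved them: without C 1, 1898 members were lost in H. Without CC_l 1, CC_l 2 or HH 3 the gained members in HH numbered 1081, 2766 or 1062 and the lost 749, 379 or 1018. Without HHC 2, 669 were gained and 2817 lost in HHC, and without single CC_s or HC libraries 33 to 154 were gained and 36 to 278 lost in HC. With the groups of the treatment field, 637 and 147 members were called for HH, and 168 and 334 for HHC.

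No test was made on these lists, but the other marks, which did not choose the regions, can be read beside them. At the 536 members gained in HHC, H3K27ac was present at 47.2% to 75.2% in HHC and 0.560% to 16.98% in CCC libraries, and H3K4me1 at 49.3% to 78.5% against 15.1% to 16.4%. Over the remaining members the mean difference between HHC and CCC was 2.29 points for H3K27ac and -8.25 points for H3K4me1. At the 708 lost in HHC, H3K4me1 was present at 27.1% to 87.4% in HHC and 88.7% to 95.6% in CCC, while H3K27ac overlapped (18.2% to 80.4% against 57.8% to 93.2%). The paper describes paired assays on adipocytes of one fat depot, with bead-bound nuclei divided among the antibodies. Libraries of different marks thus share mice and nuclei preparations, and these values are not independent of the H3K4me3 that chose the lists.

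The 12-week cohort, whose mice took no part in that comparison, allowed a second reading, though not an independent one. Its H3K4me3 libraries count towards the limit of 5 libraries, so they helped to admit some of these regions. At the members gained in HHC, H3K4me3 stood on average at 10.1% in C and 20.3% in H. For the members lost in HHC the means were 33.8% in C and 2.02% in H. Over all members H3K4me3 fell as well, from 48.7% in C to 17.8% in H. At the members gained in HHC, H3K27ac stood at 1.87%, 2.80% and 5.22% in C against 29.3%, 20.9% and 1.12% in H, and at 1.12% and 1.68% in CC_s against 1.31%, 10.1% and 59.1% in HC. The high values belonged to H 1, H 2 and HC 3, in which 8, 7 and 9 of the 15 macrophage promoters had H3K27ac, and the low values of H 3 and HC 1 came with 0 of 15. HC 2 had a value above every C and CC_s library (10.1%) with 0 of 15. At the members lost in HHC, H3K27ac stood at 75.4% to 78.2% in C against 22.7% to 39.4% in H and at 58.2% and 74.9% in CC_s against 15.8% to 48.3% in HC, with no overlap in either pair. Within these groups H 3 and HC 1, with 0 of 15 macrophage promoters, stood at 35.2% and 36.6%, near their shares over all members (29.3% and 34.9%). The lowest values, 22.7% and 15.8%, belonged to H 2 and HC 3, with 7 and 9 of 15. The highest values, 39.4% and 48.3%, belonged to H 1, with 8 of 15, and to HC 2, with 0 of 15. Over all members H3K27ac stood at 54.4% to 56.5% in C, 29.3% to 46.2% in H, 43.8% to 56.2% in CC_s and 34.9% to 46.5% in HC. Of 9 endothelial promoters, 8, 7 and 0 carried H3K4me3 in H 1, H 2 and H 3, and 3, 1 and 6 in HC 1, HC 2 and HC 3. The numbers were 8 in both HH and 5 to 7 in HHC libraries, against 0 to 6 in controls, so HHC and controls overlapped. The part of other cell types in the gained and the lost regions was not tested.

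**Figure D5:**
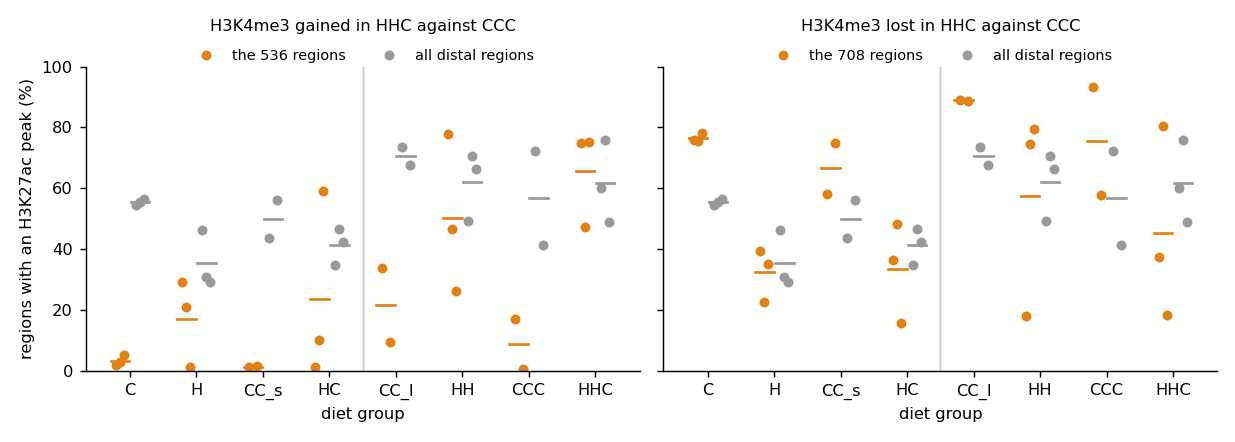
Percentage of regions with an H3K27ac peak in each library (points, bars are group means) at the 536 distal regions that gained H3K4me3 in HHC (left) and the 708 that lost it (right), in orange, with all 11153 distal regions in grey. CCC and HHC are the groups that chose the lists; in the 12-week groups the gained regions range from 1.12% to 59.1% and the lost ones are lower in every H than in every C library.

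Of the 861 members gained in HH and the 536 gained in HHC, 243 were on both lists (28.2% and 45.3%), beside 7.72% and 4.81% of all members on each. The limit of 5 libraries favours this overlap, since a region marked in the 3 HHC but no CCC library needs 2 further libraries, and HH has 2, so nothing is read from it. Losses on both lists numbered 66 (20.6% of the HH and 9.32% of the HHC list), beside 2.88% and 6.35% of all members. Of the 34 members lost in HC, 14 (41.2%) were also lost in H, beside 11% of all members. The limit of 5 libraries bears on the lists of losses too. In C libraries the members lost in HC were marked in 92.2% of cases on average, against 48.7% for all members. The 11% is thus no fair comparator, and nothing is read from the shared losses.

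The members gained and lost in HH and HHC differed in the shares of some motifs under their summits, and no test was made. Windows of 500 bp were searched on both strands. GAGGAAGT, a site of the myeloid factor PU.1, was found in 9.99% of members gained in HH and 10.1% of those gained in HHC, in 2.49% and 2.97% of those lost, and in 4.62% of all members and 4.45% of all 28561 regions. TTGCNNAA, a site of C/EBP factors of adipocytes and myeloid cells, was found in 23.1% and 20.3% of the gained and 28.97% and 34.5% of the lost, 28.04% of all members and 21.4% of all regions. For the AP-1 site TGANTCA the shares were 23.6% and 22.9% of the gained, 11.8% and 19.8% of the lost, 17.1% of all members and 13.1% of all regions. Copies of AGGNCA in tandem with a spacer of 1, as bound by PPAR and RXR, were present in 1.22% of members and 0.966% of regions, and TTGGC followed after 5 bases by GCCAA, bound by NF1, in 0.108% and 0.0840%. The PPAR and RXR repeat did not separate the lists, with 1.28% and 0.933% of the gained and 0.935% and 2.26% of the lost. The NF1 site was rare in all of them (0.116% and 0.187% of the gained, 0% and 0% of the lost). These are matches of letters, and HH and HHC were also the groups with 11 or more of 15 macrophage promoters marked.

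With groups taken from titles, one distal region separated the diets in every library. A site of 2285 bp in an intron of a coding gene, 14213 bp from the start of Plekhm2, which encodes an adaptor between lysosomes and kinesin (chromosome 4, 141647621 to 141649905), had H3K4me3 in all 10 control libraries and in none of the 11 obese and weight-loss libraries. It was the only one of the 28561 regions with this pattern (0.0035%), and none (0%) had the reverse, so it is the extreme of a long list and was chosen as such. By the treatment field, the marked CC_l 2 and CCC 3 would be HH libraries and the unmarked HH 2 and HH 3 controls, and the separation would not hold. H3K27ac was present there in all 9 control libraries, and also in 1 H, 2 HC, 2 HH and 3 HHC libraries of 3 each. H3K4me1 was present in 18 of 22 and H3K27me3 in 0 of 20, so H3K27ac did not show the split seen in H3K4me3. The second region lost in H and HH, near Banf2 (chromosome 2, 144044075 to 144045867), had H3K4me3 in 3 C, 2 CC_s, 2 CC_l and 2 CCC libraries but in 1 diet library, of HHC. The next in H lay 77950 bp from Elovl5, an elongase of polyunsaturated fatty acids, with the same numbers. Regions near Tshz2 and Katnal2 were lost in both 12-week comparisons but kept in 2 of 2 HH libraries.

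The members gained in HH and HHC alike included regions near Celf2 (chromosome 2, 6701582 to 6708289), an RNA-binding regulator of splicing, near Msrb2 (2, 19299488 to 19303392), a methionine sulfoxide reductase, and near Ctnnd1 (2, 84622228 to 84624921), the cadherin-binding p120 catenin. Each had H3K4me3 in 0 of the 10 control libraries, in both HH and all 3 HHC libraries, and in 2 H and 1 HC library. H3K27ac followed in part: near Ctnnd1 it was present in 3 HHC, 2 HH and 2 H libraries and in no control or HC library. Near Celf2 it was in 3 HHC, 2 HH, 1 HC and 0 H libraries but also in 1 CC_l and 1 CCC library, and near Msrb2 in 3 HHC, 1 HH, 1 HC and 0 H libraries and in no control. Of the regions gained in H, 2 near Zfp184 and 1 near Zfp213 had H3K27ac in 0 of 21 libraries but H3K27me3 in 8, 15 and 20 of 20. Those gained in HC lay near Smim15, at Gm15323 and near Zfp827. Their order used all 4 comparisons, so their marks in other diet groups are no separate result, and outside CC_s the region near Smim15 was also marked in 1 C and 1 CCC library and that near Zfp827 in 1 C, 1 CC_l and 1 CCC library.

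Around genes that define the adipocyte, distal H3K4me3 lay on enhancer-like sites. Of the 15 adipocyte genes, 7 were the nearest coding gene of 23 members: Lep and Lpl of 5 each, Pparg of 4, Cd36 of 3, and Adipoq, Cebpa and Fasn of 2 each. H3K27ac and H3K4me1 were each present in most libraries at 21 of the 23, beside 56.9% and 59.2% of all members. Near mesothelial genes they were present in most libraries at 4 and 4 of 5 members, and near progenitor genes at 6 and 4 of 8. Near endothelial genes the numbers were 5 and 4 of 10, near mural genes 4 and 4 of 8 and near lymphocyte genes 0 and 1 of 2. On average a C library marked 73.9% of the 23 with H3K4me3, an H library 21.7%, a CC_s and an HC library 26.1%, and CC_l, HH, CCC and HHC libraries 89.1%, 84.8%, 93.5% and 59.4%. Over all members the means were 48.7%, 17.8%, 22.2%, 21.2%, 70.3%, 80.1%, 83.8% and 65.6% in C, H, CC_s, HC, CC_l, HH, CCC and HHC, and fell from C to H as well. Near mesothelial genes the mean fell from 73.3% in C to 13.3% in H, and near mural genes from 54.2% to 8.33%. It fell from 43.3% to 23.3% near endothelial and from 50% to 37.5% near progenitor genes, and rose from 0% to 16.7% near lymphocyte genes. Of the 23, 7 were lost in H (beside 11% of all members and 7.4% of all regions), 1 in HH and 1 in HHC, and 1 was gained in HH.

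The 5 regions near Lpl, which encodes lipoprotein lipase, had H3K4me3 in 3, 3, 2, 2 and 1 of 3 C libraries and in 0, 0, 0, 1 and 0 of 3 H libraries, while H3K27ac was present in 16 to 20 of 21 libraries. The 2 near Fasn, the fatty acid synthase, had it in 3 of 3 C and 0 of 3 H, and the 2 near Cebpa, a master factor of adipogenesis, in 3 and 2 of 3 C against 1 and 0 of 3 H. In CC_l and HH the same Lpl regions were marked in 2, 2, 2, 2 and 0 and in 2 of 2 libraries each. Near Lep, which encodes leptin, a region at chromosome 6, 28979117 to 28982973, stood apart with H3K27me3 in 19 of 20 and H3K27ac in 0 of 21 libraries, whereas the other 4 had H3K27ac in 18 to 21. Both regions near Adipoq had H3K27me3 in 18 of 20 libraries together with H3K27ac in 17 and 15 of 21. They are wide, at 13964 and 6950 bp, so the marks may lie on different stretches of a region.

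Of the macrophage genes, Ptprc was the nearest coding gene of 6 members and Adgre1 of 1, which makes 7. Those of Ptprc lay 15587, 16088, 37796, 245147, 271583 and 422660 bp from a start of it, and that of Adgre1 21714 bp. The region at 271583 bp holds the start of the lncRNA Gm4258 and was marked in 21 of 21 libraries. The 7 members were marked in 38.1% of cases in C, 47.6% in H, 23.8% in CC_s, 38.1% in HC, 42.9% in CC_l, 85.7% in HH, 64.3% in CCC and 81.0% in HHC libraries, against the means over all members given above (80.1% in HH). Of the 7, 3 were gained in HH, beside 7.72% of all members and 5.52% of all regions. Only 2 had H3K27ac and none H3K4me1 in most libraries.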

How the data were processed

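CUT&Tag libraries of 4 histone marks (21 H3K4me3, 21 H3K27ac, 22 H3K4me1 and 20 H3K27me3) were analysed from 84 peak lists. Per the submitters' processing notes and the published methods, the authors removed adapters with Trim Galore 0.6.6, aligned to GRCm38 (Bowtie2 2.4.4 is named), sorted alignments with SAMtools 1.13, made coverage tracks with bedtools 2.30 and called peaks separately for every library in SEACR 1.3 (stringent, threshold 0.01). The deposited columns hold each peak's total signal and highest signal, which is unscaled coverage, so signal was ranked only within a library. Depth is unknown, a missing peak does not show that a mark is absent, and the precision of each comparison rests on the number of libraries. Whether the lists were filtered for blacklisted regions, as the methods state of the analysis, was not settled.

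The regions, gene lists, motifs and comparisons were chosen with earlier results of these data known. Autosomal H3K4me3 peaks sharing at least 1 bp were merged. A region counted as marked where any peak of the library shared 1 bp or more with it. Distances run from the region's edge to coding starts of GENCODE M21. A marker promoter is the 2000 bp on either side of a coding start. Named regions were, by rule, the 8 most constant with a lncRNA start and the 6 most constant with no start (ties by signal, those with H3K27me3 in most libraries left out), up to 3 gained and 3 lost per comparison by the summed difference over the 4 comparisons, starts of 41 listed non-coding genes, and the 3 with most H3K27me3 (ties by H3K4me3).

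Differences between diets are means over the 12-week and 25-week cohorts, tested by exact two-sided permutation of labels within cohorts. Distal and promoter-near shares were compared by a sign-flip permutation test with 100000 resamples. P-values were adjusted by Benjamini-Hochberg over 6 and 3 tests. Tests of H3K4me3 planned beforehand were left out, because H3K4me3 chose the regions. The study describes its replicates as biological. Python 3.11.15 with NumPy, pandas and SciPy was used. Promoters of endothelial (9 genes), mesothelial (6), mural (6) and progenitor (7) lists carried H3K4me3 at 0 to 8, 0 to 3, 0 to 5 and 0 to 6 across the H3K4me3 libraries.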

Additional observations from a re-analysis of the deposited data

How the results depend on the processing

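Of the compared values, the higher H3K4me1 and lower H3K27me3 share of distal than of promoter-near regions kept their direction and their side of the threshold under every alternative tried; those of H3K27ac did not. The H3K27ac difference of distal minus promoter-near share was -5.42 with a distance limit of 5000 bp, -7.42 with 3 or more libraries, -4.90 with all transcripts of coding genes and -7.73 without regions often marked by H3K27me3 (all past the threshold), but 4.90 with 25% of a region covered, 0.377 with 10 or more libraries and 0.529 without the 6 libraries with macrophage marks. Leaving out single libraries gave -4.90 (without CCC 3, permutation p = 0.025) to -3.06. The obese difference in H3K27ac kept its direction, but passed the threshold neither with the promoter-near share subtracted (-7.67) nor in the replicate block (-15.3, exact permutation p = 0.125). The replicate block changed no other call; same-numbered H3K4me3 libraries of compared groups deviated from their group means with correlations of -0.174 to 0.0456 across the members, so they share only a number. Leaving out single libraries gave -16.98 to -11.1 for it and -9.68 to 5.82 for weight loss. Values that were not past the threshold changed sign as follows: H3K27ac after weight loss to 4.86 and H3K4me1 to 3.28 without the 6 libraries, H3K27me3 in obesity to -0.238 with 25% covered and -0.952 with the promoter-near share subtracted, and in weight loss to -0.700.

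For H3K4me3, which has no test, the obese difference was -22.6 with 10 or more libraries. Its distal minus promoter-near value (-4.61 as reported) was 4.16 with a stricter peak threshold, 2.85 with 25% covered, -14.1 with 10 or more libraries and -11.3 in the replicate block, and that of weight loss (-11.05) was -1.11 with equal peak numbers. Members gained or lost were 0.717%, 1.43% and 2.29% for H, HH and HHC with equal peak numbers, and 1.22%, 0.0717%, 4.90% and 6.20% for H, HC, HH and HHC with the stricter threshold. With 10 or more libraries they were 22.9%, 1.32%, 1.09% and 0.689%, for HC with 25% covered 0.314%, and with the treatment field 7.03% for HH and 4.501% for HHC. Leaving out single libraries gave 12.8% to 17.1% in H, 0.816% to 2.79% in HC, 14.2% to 28.2% in HH and 13.1% to 31.3% in HHC. The share with a non-coding start was 10.7% with 3 and 17.97% with 10 or more libraries, 10.1% with the start inside the region and 15.1% within 2000 bp. The cause was not tested. The near-share and macrophage-mark alternatives were chosen after seeing the data. Depth per library is unknown, so absence of a peak in a library cannot be told apart from a shallow library.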
